A study of Mus musculus with 14 samples.

Results

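Described here are 10 macrophage and C1q genes, Marco, Msr1, Mrc1, Cd68, Csf1r, Chil3, C1qa, C1qb, C1qc and Laptm5, in lung tumors that arose in SPC/c-Myc transgenic mice. Every probe set whose only gene symbol in the platform annotation is one of these was taken, which gave 15 probe sets of 12422 and 10 genes of 8251 distinct symbols. The data are signals from 14 arrays (Affymetrix Murine Genome U74v2), 4 hybridized with lung of non-transgenic mice (control lung) and 10 of tumors of c-Myc transgenic mice, which carried the transgene as hemizygotes. All mice had the CD2F1-(DBA/2xBalb/C) background and were 9 to 13 months old. The surfactant protein C (SPC) promoter directs c-Myc to the respiratory epithelium. Small tumors (3 arrays) measured about 1 mm, and each array was a pool of 3 to 4 tumors. Middle-sized tumors (4 arrays) measured 4 to 5 mm and large tumors (3 arrays) at least 10 mm. The 3 sizes share the same 4 control lungs, so their comparisons with control lung are not independent. Tumors were dissected free of the surrounding tissue, whereas control lung holds airways, vessels and alveoli. Middle tumor 3 stood apart from the other arrays, with 25.2% of its values at or near 0, which were treated as missing, and 5630.0 probe sets at 70 or more against 6796 to 7575 on the other 13 arrays. Without it, Chil3 in large tumors lost its call (limma, adjusted p = 0.0514) and no other call of these genes against control lung changed.

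Macrophages of the lung are of several kinds. Alveolar macrophages lie in the airspace, clear surfactant and particles through scavenger receptors and lectins, and depend on epithelial colony stimulating factors, while monocyte-derived and interstitial macrophages depend on signalling through Csf1r and are a main source of C1q in tissues. C1q is the recognition molecule of the classical complement pathway and is built from chains encoded by C1qa, C1qb and C1qc, which lie side by side in the mouse genome. In tumors, macrophages that express C1q are known for taking up dying cells and immune complexes. In RNA of whole tissue, fewer cells of a type cannot be told apart from less RNA per cell.

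The signal of Csf1r was lower in every tumor than in every control lung, Laptm5 and Mrc1 fell as well and were lowest in large tumors, while C1qa, C1qb, C1qc and Cd68 gave no call in either direction at any size. Of the 10 genes, 8 reached 70, the limit for an expressed gene, on 3 or more arrays and were tested. Marco and Msr1 did not. In all tumors against control lung, 3 of these 8 were called lower (limma, adjusted p under 0.05) and none higher, where 21.0% of all 6914 probe sets tested were called lower and 23.6% higher. At an unadjusted p under 0.05, 4 of the 8 were lower and 0 higher, against 24.0% lower and 27.3% higher over all probe sets. The median log2 fold change of the 8 was -0.32, and that of all probe sets tested was 0.04. Every tumor lay below every control lung in 1 of the 8 (Csf1r) and in 12.7% of all probe sets tested.

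**Figure D1:**
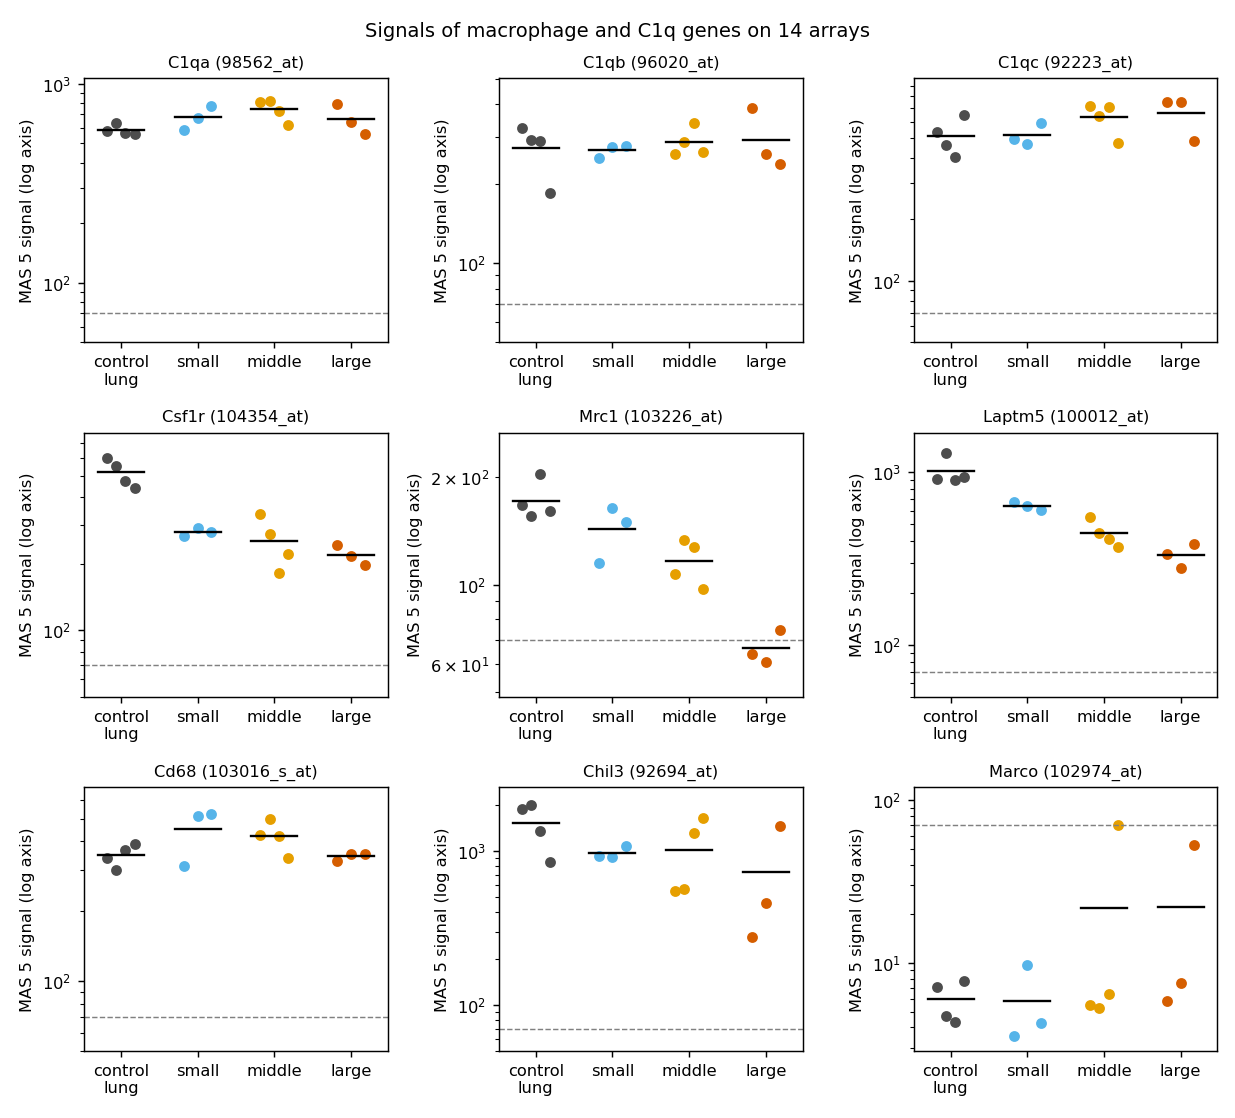
Signal (MAS 5, log axis) of 9 probe sets on each array, by group, with a horizontal bar at the group mean and a dashed line at 70, the limit taken for an expressed gene. Csf1r and Laptm5 (probe set 100012_at) lie lower in all 10 tumors than in all 4 control lungs, C1qa, C1qb and C1qc overlap between groups, and Marco reaches the dashed line on 1 array.

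The tissues differed in other cells too. Of 11 markers of alveolar type I and endothelial cells, 10 were lower in tumors, as were 4 of 4 erythroid markers, and of 4 alveolar type II markers 1 was higher and none lower. The summed signal of the type I and endothelial list ran from 24588 to 34347 in control lung and from 3974 to 8796 in tumors. That of the alveolar type II list ran from 16289 to 26108 in control lung and from 17010.0 to 33331 in tumors. A missing value adds nothing to such a sum, and Sftpb of this list had values in 9 tumors only. The low end of 17010.0 was that of a middle-sized tumor. Small tumors ran from 24992 to 28440 and large tumors from 21847 to 29577. The erythroid sum ran from 11834 to 22530.4 in control lung and from 1562 to 7159 in tumors. The part of these differences in tissue makeup in the results on macrophage genes was not tested.

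C1qb and C1qc are shown with the 250 bases before their transcription start, because the chains are read as a set below and their signals can be set beside the starts they come from. The windows are from RefSeq (GRCm38.p6), read along the gene from 5′ to 3′. Both lie on chromosome 4 on the minus strand, C1qb at chr4:136886201-136886450 and C1qc at chr4:136892915-136893164. Capitals mark GAGGAA, the core of binding sites of the myeloid factor PU.1 (encoded by Spi1), or its reverse complement.
C1qb: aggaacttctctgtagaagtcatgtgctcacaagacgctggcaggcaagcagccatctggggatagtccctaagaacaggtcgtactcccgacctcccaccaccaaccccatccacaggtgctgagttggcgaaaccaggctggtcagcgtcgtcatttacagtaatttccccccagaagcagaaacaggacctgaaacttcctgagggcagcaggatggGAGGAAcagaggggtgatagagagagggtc
C1qc: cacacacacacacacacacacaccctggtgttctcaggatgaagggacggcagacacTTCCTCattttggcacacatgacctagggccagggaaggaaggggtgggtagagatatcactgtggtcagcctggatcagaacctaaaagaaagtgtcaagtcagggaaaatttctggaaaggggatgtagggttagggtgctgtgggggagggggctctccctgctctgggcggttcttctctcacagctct
Of 32851 such windows in the table, 23.3% hold GAGGAA on either strand. It is in 6 of 7 windows of the genes described here, those of Marco, Mrc1, Laptm5, C1qb, C1qc and Cd68, and not in that of Chil3. No window was available for C1qa, Csf1r and Msr1. The E-box CACGTG, to which c-Myc binds with its partner Max, is in 6.02% of all windows and in 0 of the 7. A match describes letters in a window and is not a measured site.

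None of the C1q chains was called higher or lower at any size. C1qa gave signals of 577, 634, 563 and 555 in control lung, 585, 673 and 769 in small tumors, 810, 816, 727 and 617 in middle-sized tumors and 792, 642 and 558 in large tumors. Its highest values were those of middle tumors 1 and 2, but the groups overlapped. In all tumors the log2 fold change was 0.24 (SE 0.12, 95% interval -0.01 to 0.50), which did not pass the test (limma, adjusted p = 0.115). By size the log2 fold changes were 0.21, 0.34 and 0.18 in small, middle-sized and large tumors, with adjusted p-values of 0.323, 0.0798 and 0.396. C1qa was the one chain whose call depended on the scaling. With each array scaled to 1 median, it was higher in all tumors (log2 fold change 0.35, limma, adjusted p = 0.045) and in middle-sized tumors (0.46, limma, adjusted p = 0.0393). Without middle tumor 4, it was higher in middle-sized tumors as well (0.43, limma, adjusted p = 0.0408).

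C1qc had signals of 534, 465, 402 and 645 in control lung, 497, 466 and 590 in small tumors, 719, 643, 710 and 475 in middle-sized tumors and 753, 750.2 and 484 in large tumors. Each size had at least 1 tumor within the range of control lung. The log2 fold change in all tumors was 0.24 (SE 0.16, 95% interval -0.11 to 0.59, limma, adjusted p = 0.255). In small, middle-sized and large tumors it was 0.03, 0.32 and 0.37, and no size passed the test (limma, adjusted p-values of 0.934, 0.236 and 0.186).

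C1qb is represented by a pair of probe sets. The brighter, 96020_at, gave 327, 293, 291 and 184 in control lung, 251, 276 and 277 in small tumors, 259, 287, 340 and 264 in middle-sized tumors and 386, 260 and 237 in large tumors. Control lung 4 was the lowest of all 14 arrays and large tumor 1 the highest, with the rest between. Its log2 fold change was 0.07 (SE 0.17, 95% interval -0.30 to 0.43, limma, adjusted p = 0.790), and its sign turned in some settings, among them without control lung 4 (-0.11) and without large tumor 1. The interval corresponds to folds of 0.812 to 1.35. The second probe set, 162276_i_at, gave 133, 141, 147 and 228 in control lung and from 79.3 to 192 in 9 tumors, with a log2 fold change of -0.41 (limma over all probe sets, adjusted p = 0.311). The probe sets differ in sign and neither passed the test.

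Over the 10 tumors the chains varied together only loosely. Pearson's r of C1qa with C1qc was 0.67 (permutation p = 0.0381, adjusted over 6 relations 0.117) and Spearman's rho 0.54 (permutation p = 0.114, adjusted 0.342). For C1qa with C1qb r was 0.60 (permutation p = 0.0642, adjusted 0.117) and rho 0.65 (permutation p = 0.0501, adjusted 0.300), and for C1qb with C1qc r was 0.56 (permutation p = 0.0919, adjusted 0.117) and rho 0.37 (permutation p = 0.294, adjusted 0.461). None of the 3 passed after adjustment. Without the 2 tumors farthest from the median of the first gene, r was 0.51, 0.38 and 0.24 in the same order. With the mean of each tumor size removed, r was 0.79, 0.63 and 0.54 in the same order.

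Among the members that fell, Mrc1 and Laptm5 are shown with the same window before the start, chr2:14229164-14229413 and chr4:130913066-130913315, both on the plus strand of GRCm38.p6 (RefSeq) and with GAGGAA or its reverse complement in capitals.
Mrc1: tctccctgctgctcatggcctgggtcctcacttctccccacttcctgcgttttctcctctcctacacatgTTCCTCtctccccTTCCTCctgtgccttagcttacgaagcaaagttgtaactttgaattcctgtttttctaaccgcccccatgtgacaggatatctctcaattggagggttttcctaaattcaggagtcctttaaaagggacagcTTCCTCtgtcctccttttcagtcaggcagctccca
Laptm5: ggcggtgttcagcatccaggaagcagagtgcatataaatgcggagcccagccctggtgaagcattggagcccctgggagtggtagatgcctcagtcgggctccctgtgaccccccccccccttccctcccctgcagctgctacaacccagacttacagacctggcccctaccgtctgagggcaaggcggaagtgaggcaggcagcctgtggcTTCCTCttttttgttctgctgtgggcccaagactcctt
The match nearest to the start ends 24 bases before it in C1qb, 187 in C1qc, 32 in Laptm5 and 29 in Mrc1, whose window holds 3 matches. Genes whose signal fell and genes whose signal gave no call both hold it.

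Csf1r, the receptor for the macrophage growth factors Csf1 and Il34, gave signals of 600.4, 552, 474 and 441 in control lung. It gave 266, 290 and 278 in small tumors, 336, 273, 181 and 222 in middle-sized tumors and 243, 216 and 198 in large tumors. All 10 tumors lay below all 4 control lungs, a separation that 12.7% of all probe sets tested showed in this direction and 11.0% in the other. Its level was 2.08-fold lower in all tumors (log2 fold change -1.06, SE 0.16, limma, adjusted p = 8.0e-05). The fall was 1.85-fold in small tumors, 2.08-fold in middle-sized and 2.35-fold in large tumors (limma, adjusted p-values of 0.00349, 6.0e-04 and 2.7e-04). The sizes were not told apart, with a log2 difference of -0.35 between large and small tumors (95% interval -0.81 to 0.11, limma, adjusted p = 0.692). The second probe set of Csf1r, 161832_r_at, lay near the limit of 70, at 55.7 to 101 in control lung and 59.8 to 123 in 9 tumors, and was not called (0.10 on the log2 scale, limma over all probe sets, adjusted p = 0.963). The ligand Csf1 fell too, from 366 to 578 in control lung to 73.7 to 146 in tumors (log2 fold change -2.26, limma, adjusted p = 1.6e-06).

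Mrc1, the mannose receptor of macrophages and of some endothelial cells, gave signals of 167, 156, 205 and 161 in control lung. In small tumors it gave 115, 164 and 149, in middle-sized tumors 107, 133, 127 and 97.2 and in large tumors 63.9, 60.5 and 74.5. Small tumors overlapped with control lung, middle-sized tumors lay below it, and large tumors lay below all other arrays. The shares of all probe sets with such separations by size were not computed. Its log2 fold change was -0.70 in all tumors (SE 0.13, limma, adjusted p = 6.9e-04). It was -0.28 in small tumors (limma, adjusted p = 0.236), -0.57 in middle-sized tumors (limma, adjusted p = 0.0140) and -1.26 in large tumors (limma, adjusted p = 6.2e-05). Between large and small tumors the log2 difference was -0.98 (95% interval -1.38 to -0.59) with an unadjusted p of 1.03e-04 in limma, which after adjustment over all probe sets was 0.0820. Only 0.0289% of probe sets, 2 of 6914, passed in that comparison, and the share was 0% between middle-sized and small tumors as well as between large and middle-sized tumors. The large tumors were at or near the limit of 70, to which values below it were set, so the fold in them is understated. With each array scaled to 1 median the call in middle-sized tumors was lost (-0.45, limma, adjusted p = 0.0517).

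Laptm5, a lysosomal membrane protein of hematopoietic cells, was measured by a pair of probe sets. On 100012_at the signals were 918, 1302, 899 and 940 in control lung, 670.0, 635 and 606 in small tumors, 552, 446, 412 and 369 in middle-sized tumors and 338, 278 and 386 in large tumors. All tumors lay below all control lungs, as in 12.7% of the probe sets in the main test. Each small tumor lay above each larger tumor, an order whose share over all probe sets was not computed. On 161819_f_at, which has the higher mean and entered the main test, they were 801, 1260, 966 and 857 in control lung, 843, 605 and 738 in small tumors, 744, 647 and 462 in middle tumors 1, 2 and 4, and 395, 423 and 484 in large tumors, with the value of middle tumor 3 missing. Here 1 small tumor lay within the range of control lung. The log2 fold change in all tumors was -0.74 on 161819_f_at (SE 0.16, limma, adjusted p = 0.00177) and -1.15 on 100012_at (limma over all probe sets, adjusted p = 6.5e-05). On 161819_f_at it was -0.41, -0.66 and -1.15 in small, middle-sized and large tumors (limma, adjusted p-values of 0.130, 0.0217 and 5.5e-04), and on 100012_at -0.66, -1.19 and -1.60 (limma over all probe sets, adjusted p-values of 0.0165, 2.8e-04 and 5.6e-05). The call in small tumors therefore depended on the probe set. In middle-sized tumors the call on 161819_f_at was lost without control lung 2 (limma, adjusted p = 0.0654) and without middle tumor 4 (limma, adjusted p = 0.106). With values at 0 kept as deposited, middle tumor 3 is listed at 0 on this probe set and enters at the floor of 70. The log2 fold change was then -0.996 in all tumors, -1.44 in middle-sized and -1.15 in large tumors, and none passed (limma, adjusted p-values of 0.114, 0.0749 and 0.171).

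By size, the members called lower were 1 of 8 in small tumors, where 16.7% of all probe sets were lower and 19.9% higher. They were 3 of 8 in middle-sized tumors, against 16.4% lower and 15.8% higher over all probe sets, and 4 of 8 in large tumors, against 18.3% lower and 19.8% higher. None was called higher at any size at an adjusted p under 0.05 in limma. The gene called in small tumors was Csf1r. Laptm5 and Mrc1 joined it in middle-sized tumors and Chil3 in large tumors. Between sizes 0 of 8 were called, and at an unadjusted p under 0.05 in limma 0 differed between middle-sized and small tumors, 2 between large and small and 2 between large and middle-sized tumors. Over all probe sets, 6.49%, 8.10% and 9.79% passed that threshold in the same order.

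**Figure D2:**
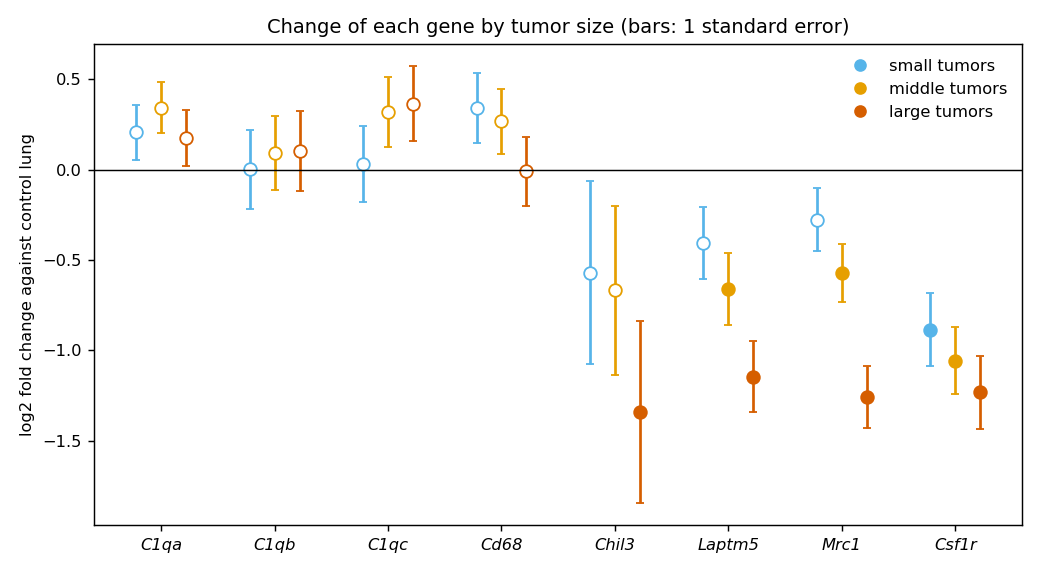
Log2 fold change against control lung of the 8 tested genes in small, middle-sized and large tumors, with bars of 1 standard error. Filled points passed the test (limma, adjusted p under 0.05). Csf1r is filled at all 3 sizes and Mrc1 and Laptm5 (161819_f_at) at the larger 2, while all points of the C1q genes and Cd68 are open.

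Cd68, a lysosomal glycoprotein used as a general macrophage marker, gave signals of 339, 299.9, 367 and 389 in control lung. Small tumors gave 314, 517 and 525, middle-sized tumors 427, 497, 422 and 340.2, and large tumors 329.9, 353 and 352. The highest values were in small tumors 2 and 3, and the large tumors lay inside the range of control lung. Its log2 fold change was 0.20 in all tumors (SE 0.15, 95% interval -0.12 to 0.52, limma, adjusted p = 0.301). It was 0.34 in small tumors (limma, adjusted p = 0.186) and 0.27 in middle-sized tumors (limma, adjusted p = 0.284). Without small tumor 1, which had the lowest value of its group, the difference in small tumors passed the test (0.59, limma, adjusted p = 0.0259). The other probe set of Cd68, 162173_i_at, was at most 4.64 on every array with a value and measured nothing above the limit.

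Chil3 encodes a chitinase-like protein that alveolar and alternatively activated macrophages release. Its signals were 1880.2, 1997, 1361 and 846 in control lung, 927, 915 and 1081 in small tumors, 553, 571, 1314 and 1636 in middle-sized tumors and 277, 457 and 1457 in large tumors. All small tumors, middle tumors 3 and 4 and large tumor 3 lay within the range of control lung, and the other 4 tumors lay below it. The log2 fold change was -0.86 in all tumors (SE 0.39, limma, adjusted p = 0.0897) and -1.34 in large tumors (95% interval -2.42 to -0.26, limma, adjusted p = 0.0491). The call in large tumors was lost in 18 of 29 alternatives, with adjusted p-values up to 0.238 without large tumor 1. Without large tumor 3 the log2 fold change in large tumors was -2.02 (limma, adjusted p = 0.00340) and in all tumors -1.09 (limma, adjusted p = 0.0114).

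Marco, a scavenger receptor that marks alveolar macrophages, was not measured above the limit of 70 in control lung, where its signals were 7.08, 4.69, 4.32 and 7.77. In small tumors they were 3.56, 9.68 and 4.23, in middle-sized tumors 5.53, 5.27, 6.45 and 70.0216 and in large tumors 5.84, 7.46 and 53.1. Middle tumor 4 and large tumor 3 stood apart from the other 12 arrays, and only the first of them reached 70. These were also the tumors with the highest Chil3 signals. Over the 10 tumors r of Marco with Chil3 was 0.55 (permutation p = 0.0971, adjusted 0.117) and rho 0.36 (permutation p = 0.313, adjusted 0.461). Without these 2 tumors r was -0.135, so the relation rests on them. With the mean of each tumor size removed, r was 0.80 (permutation p = 0.0186 within sizes, adjusted 0.0827). Msr1, the class A scavenger receptor, had both its probe sets below 70 on all 14 arrays, with signals of 16.3 to 42.4 on 94140_at and 9.48 to 55.3 on 94792_at. For Marco and Msr1 no fold is given.

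**Figure D3:**
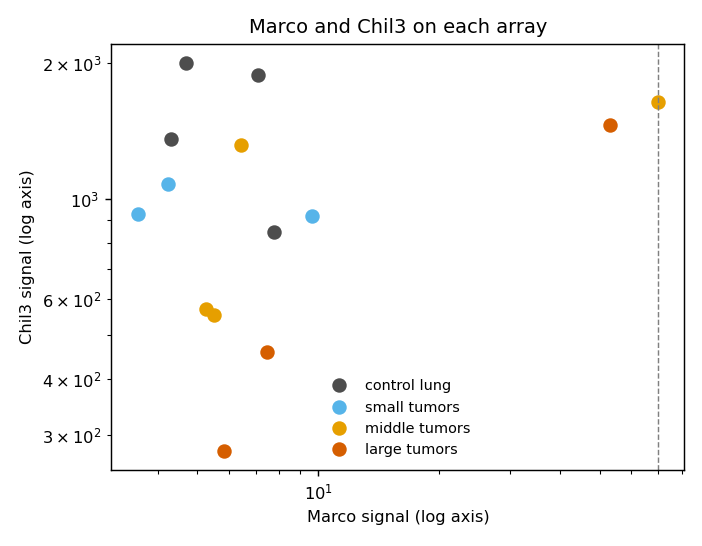
Signal of Chil3 against that of Marco (102974_at) on each array, both on log axes, with a dashed line at a Marco signal of 70. Middle tumor 4 and large tumor 3 lie to the right of all other arrays and have the highest Chil3 signals among the tumors, while Chil3 in the other tumors runs from 277 to 1314 at Marco signals under 10.

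Since C1q and Csf1r are both transcripts of macrophages, the C1q genes were also set against the genes that fell, on the same array and on the log2 scale, a comparison chosen after the values had been seen and given as a description. The mean log2 signal of C1qa, C1qb and C1qc minus that of Csf1r averaged -0.26 ± 0.11 (SD) over the 4 control lungs and 0.99 ± 0.33 (SD) over the 10 tumors. The change corresponds to 2.37-fold, and 10 of 10 tumors lay above all control lungs. Against Laptm5 (100012_at) the change was 1.34 on the log2 scale and 10 of 10 tumors lay above all control lungs. Against Mrc1 it was 0.88, with 9 of 10 tumors above. Csf1r and Laptm5 (100012_at) were already lower in every tumor, and no C1q gene was called. The separation in these ratios therefore largely restates those results and is no separate evidence. How many other genes separate in this way was not computed. The probe sets used had values on all 14 arrays, for C1qb 96020_at. Of those not used, Laptm5 161819_f_at fell by less (-0.74 against -1.15) and C1qb 162276_i_at was at -0.41 against 0.07. No ratio was computed with them. Against Ptprc, the CD45 antigen of all leukocytes, the log2 difference went from 0.73 ± 0.85 (SD, 4 control lungs) to 2.65 ± 0.32 (SD, 10 tumors), and with signals below 70 not raised to it the change was 2.63 instead of 1.92. This difference does not depend on the scaling of an array, and it shows unequal change of the genes, not which of them held its level. Over the 10 tumors the C1q mean and Csf1r had little relation (r = 0.08 and rho = 0.13).

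**Figure D4:**
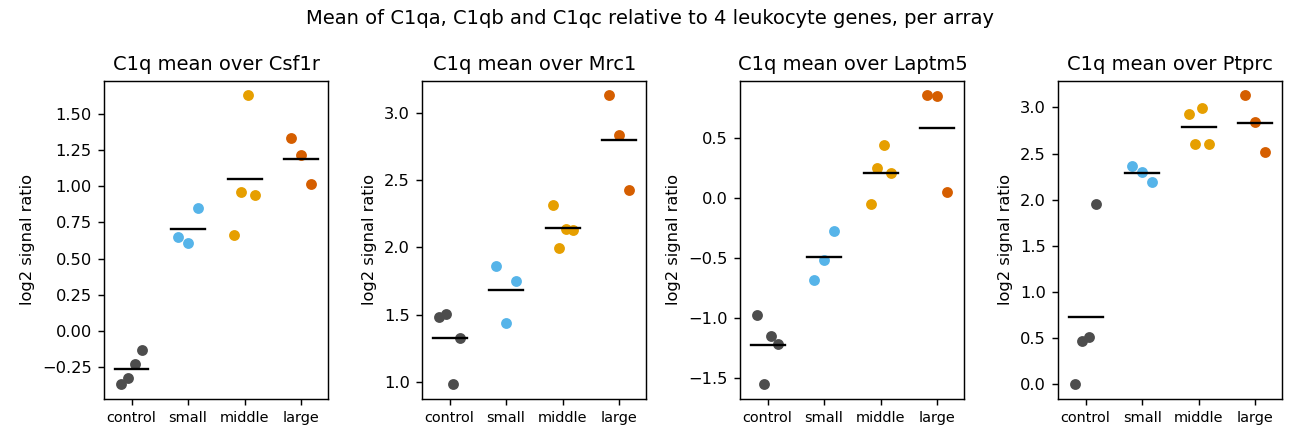
Mean log2 signal of C1qa, C1qb and C1qc minus the log2 signal of Csf1r, Mrc1, Laptm5 (100012_at) or Ptprc on each array, by group, with a bar at the group mean; each panel has its own vertical axis. All 10 tumors lie above all 4 control lungs in the panels of Csf1r, Laptm5 and Ptprc, and 9 of 10 in that of Mrc1.

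Other genes of the same cells and pathways were read from lists of genes by role, in all tumors against control lung. The shares to set beside each list count are those of all 6914 probe sets tested, 21.0% lower and 23.6% higher. Of 9 tested genes of alveolar macrophages 4 were lower and none higher (median of the log2 fold changes -0.27). The lower ones were Car4 (-2.89), Lpl (-1.81), Mertk (-1.50) and Plet1 (-0.73), of which Car4, a carbonic anhydrase, is also made by lung endothelium. Itgax, the CD11c integrin of alveolar macrophages and dendritic cells, was at -0.19 and did not pass (limma, adjusted p = 0.294). The summed signal of the list ran from 6498 to 7224 in control lung and from 3493 to 5244 in tumors. It includes Car4, with means of 1416 in control lung and 205 in tumors, and Lpl, with 803 and 228. The other 5 genes of the 9 besides the 4 lower ones were not called.

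Of 20 genes of monocytes and tissue macrophages 13 were lower and 2 higher, with a median of -0.54. Ccr2, the chemokine receptor of recruited monocytes, had a log2 fold change of -2.10 and Irf8, a transcription factor of the lineage, of -1.64. Spi1, which encodes PU.1, had a mean signal of 226 ± 63.8 (SD) over the 4 control lungs and fell to 154 ± 28.8 (SD) over the 10 tumors (-0.52 on the log2 scale, limma, adjusted p = 0.0334). The endotoxin co-receptor Cd14 rose from 688 to 804 in control lung to 1024 to 3012 in tumors (1.08, limma, adjusted p = 8.8e-05), and so did the macrophage elastase Mmp12 (1.90, limma, adjusted p = 7.2e-04). Both genes can be expressed in other cells. Lyz2, the lysozyme of macrophages and alveolar type II cells, had mean signals of 4259 and 4258 (log2 fold change -0.08, limma, adjusted p = 0.834). Adgre1 and Itgam, which encode F4/80 and CD11b, were below the filter.

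Of 17 Fc receptor and myeloid signalling genes 11 were lower and none higher (median -0.69). Tyrobp, the adaptor DAP12, gave signals of 926, 889.7, 405 and 428 in control lung and from 131 to 403 in tumors. Its tumors lay below its control lungs, as in 12.7% of all probe sets tested, but by little below control lungs 3 and 4. Control lungs 1 and 2 also had the highest Csf1r and far higher signals of the neutrophil gene S100a8 (2061 and 2271, against 310.002 and 234 in control lungs 3 and 4 and 1740.3 in small tumor 1). The tumors lay below control lungs 3 and 4 in Csf1r as well. Leaving out each array in turn, with the other alternatives, moved its log2 fold change in all tumors between -1.18 and -0.95 and lost no call. Control lungs 1 and 2 were not left out together, and the part of leukocyte content in the Csf1r signal was not tested. Of 10 pan-leukocyte genes 8 were lower and 1 higher (median -1.24), and Ptprc ran from 105 to 467 in control lung and from 5.15 to 110 in tumors. Lymphocyte markers (5 of 10) and neutrophil and mast cell markers (5 of 9) were lower as well, with 0 and 1 higher.

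Of 13 complement genes other than C1q 8 were lower and 1 higher (median -0.50). Cd93, a receptor of endothelial and myeloid cells once described as a C1q receptor, had a log2 fold change of -3.09, and Serping1, the inhibitor of C1r and C1s, of -2.45. Clu, which encodes clusterin, was higher (1.27). C1ra, a protease of the C1 complex that C1q assembles with, averaged 509 ± 71.0 (SD) over control lungs against 476 ± 68.4 (SD) over tumors and did not pass (-0.09, limma, adjusted p = 0.610). The list sum ran from 7908 to 8644 in control lung and from 3431 to 7129 in tumors.

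Of 6 scavenger receptors and lectins other than the members 4 were lower, Stab1, Cd36, Lgals1 and Scarb1 (median of the list -1.08). Colony stimulating factors and their receptors were lower in 5 of 11 and higher in 1, with Csf1 among the first and Csf3 (1.18) the one higher. Of 6 chitinase-like and alternative activation genes 4 were lower, among them Chia1 (-2.48) and Il4ra (-1.31), and 2 were higher, Chil1 (1.15, limma, adjusted p = 0.0102) and Arg1 (1.57, limma, adjusted p = 0.0263). Arg1 averaged 26.2 ± 12.2 (SD) over control lungs, below the limit, against 277 ± 249 (SD) over tumors.

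**Figure D5:**
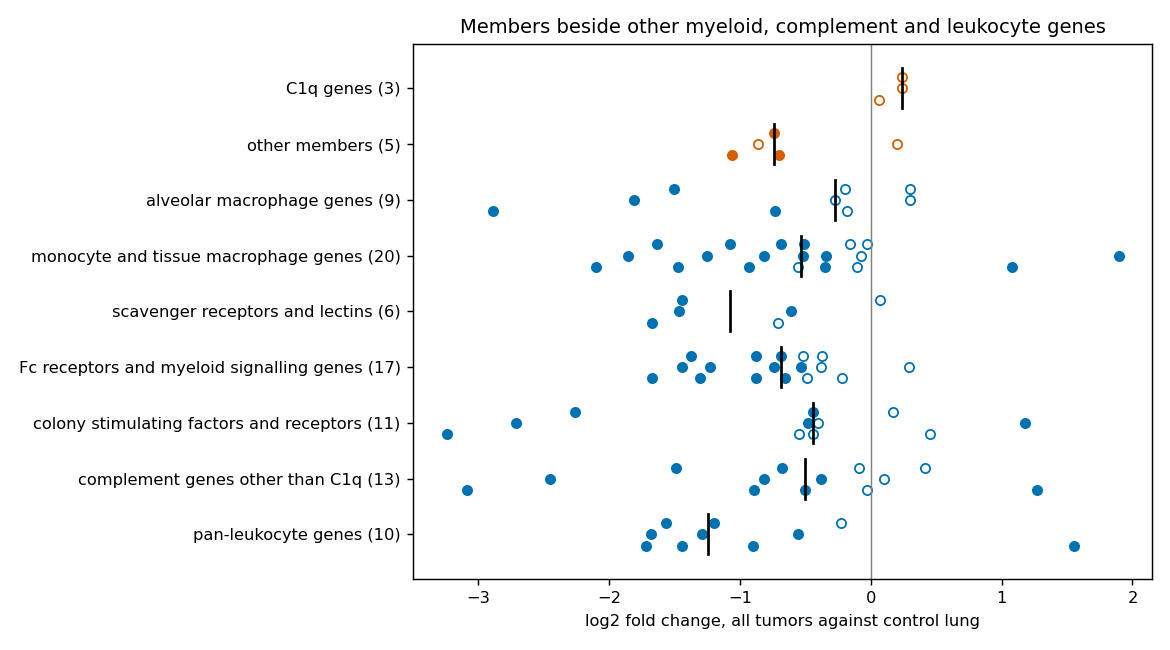
Log2 fold change in all tumors against control lung of the C1q genes, the other tested members and the tested genes of 7 lists, with the number of genes in brackets, a black line at each median and filled points for genes that passed the test (limma, adjusted p under 0.05). The C1q genes lie between 0.07 and 0.24 with open points, and the medians of the 7 lists lie between -1.24 and -0.27.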

How the data were processed

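RNA of lung and tumors was hybridized to 14 arrays. The authors computed the deposited intensity per probe set with MAS 5, a linear signal whose target on each array was 250. The version is not given in the sources used here. Control probe sets (66) were left out, and 3125 values up to 1e-06 on middle tumor 3 were taken as missing. Lower signals were raised to 70 before taking log2. Tested were probe sets that reached 70 on 3 or more arrays, and for each symbol only the one with the highest mean, 6914 in all. The 4 groups entered 1 limma model (version 3.58.1 in R 4.3.3, with a trend, tested on simulated data first). From it came 7 comparisons, adjusted by Benjamini-Hochberg over all probe sets (threshold 0.05). "Limma over all probe sets" is the same model over 12422. Replicates were labelled as biological, and p-values measure the spread between them; their number limits the precision. Relations used 100000 two-sided permutations over 10 tumors and were adjusted over 6. Platform symbols can be old. Genes named are all members and, from 13 lists, some of the large changes and defining genes. Large log2 fold changes in all tumors that were passed over include Kit (-3.24), Kitl (-2.71), Vcam1 (-1.86) and Sirpa (-1.67). On the higher side they include Lcn2 (2.42) and Cd44 (1.55). Members, lists and tests were chosen with earlier results of these data known, and the motifs, the ratios and the second Laptm5 probe set after values had been seen. Alternatives covered the floor, filter, scaling, missing values, the probe set of Laptm5, moderation, weights, replicate block, the methods' unpaired test and leaving out each array. Change calls and transgenic lung without tumors were not used here.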

Additional observations from a re-analysis of the deposited data

Results flagged for a closer look

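Of 26 sets of 4 arrays of 1 group and 1 member probe set, 3 held an array far from the others by Dixon's test, which is expected by chance in about 5% of such sets. Marco had a signal of 70.0216 in middle tumor 4, and the next highest of its group was 6.45. The second probe set of C1qb, 162276_i_at, had 227.885 in control lung 4 against a next highest of 147. Laptm5 (100012_at) had 1301.53 in control lung 2 against a next highest of 939.9. All 3 were the highest of their group, and the cause was not tested.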

How the results depend on the processing

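Of 1268 recomputed fold changes of members, 1199 kept their sign and their side of the threshold, 27 lost a call, 16 gained one and 26 turned in sign. Csf1r, on 104354_at, kept its calls against control lung under every alternative run, and Mrc1 kept its calls in all tumors and large tumors. The second Csf1r probe set, 161832_r_at, was not among the alternatives. It was not called in all tumors (0.10 on the log2 scale, limma over all probe sets, adjusted p = 0.963). With each array scaled to 1 median, which moved the median log2 fold change of all probe sets by 0.0963, 1 member was higher in all tumors and 1 in middle-sized tumors (C1qa), and 1 lower in middle-sized tumors. The methods' unpaired test at an unadjusted p under 0.05 gave 1 higher in all tumors, 1 higher in middle-sized tumors, and 3 lower in large against small and 1 in large against middle-sized tumors, where 26.1%, 16.9%, 5.48% and 2.42% of all probe sets passed in the same direction. With array weights 1 was higher (Cd68) and 2 lower in small tumors, and 1 lower in large against small tumors. The other Laptm5 probe set, added after seeing the data, gave 2 lower in small tumors, and keeping values at 0 gave 2 lower in large tumors. Leaving out each array in turn gave 0 to 1 higher in small tumors (1 without small tumor 1) and 0 to 1 in middle-sized tumors (1 without middle tumor 4).

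The values that turned in sign were as follows. C1qb was at -0.1079, -0.1661, -0.06531 and -0.09242 with array weights in all, small, middle-sized and large tumors, and at -0.006463, -0.1082 and -0.005597 with the replicate block in all, small and large tumors. Leaving out each array moved it from -0.1134 to 0.1622, from -0.1787 to 0.09684, from -0.08527 to 0.1903 and from -0.1087 to 0.2442 in all, small, middle-sized and large tumors. It moved C1qc in small tumors from -0.07699 to 0.1498, Cd68 in large tumors from -0.07944 to 0.0454 and Chil3 between middle-sized and small tumors from -0.3809 to 0.1406. Cd68 in large tumors was at 0.07181 with median scaling and 0.04068 with array weights, and Laptm5 between large and middle-sized tumors, at -0.49 in the main test, at 0.2916 with values at 0 kept. Without the 2 tumors farthest from the median of the first measure, r was -0.1263 for the C1q mean with Csf1r and -0.135 for Marco with Chil3. The cause of these shifts was not tested.

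Replicate numbers do not pair the samples. Of 19 same-numbered pairs 1 had deviations correlated above 0.1 (from -0.213 to 0.143), and 0 arrays correlated best with their own number. With the replicate block Chil3 in large tumors lost its call (-1.327, limma, adjusted p = 0.0624), and no other call of a member against control lung changed. Msr1 on all arrays, Marco on 13 of 14 and Mrc1 in 2 of 3 large tumors lie under the limit of 70, so smaller changes in them could not be measured.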

Other observations

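Over the 10 tumors, the genes whose log2 signal followed the mean of C1qa, C1qb and C1qc most closely, of 4566 compared, were Sema4a (r = 0.93, rho = 0.93), Rad51b (0.91 and 0.94), Mfsd1 (0.86 and 0.88), Agtrap (0.84 and 0.82) and Mgp (0.83 and 0.87). The genes were ranked on the same 10 arrays, so these values are a description with no test. The 5 genes that followed Marco most closely in r, of 4569, were Atxn10, Hhex, Slc11a1, Prxl2a and St3gal6, with r between 0.92 and 0.97 but rho between 0.31 and 0.64. Marco lay below the limit of 70 on 9 of 10 tumors, and without middle tumor 4 and large tumor 3 these r values ran from -0.148 to 0.432. The C1q mean and Marco had r = -0.57 and rho = -0.31 over the 10 tumors, with r = -0.42 without large tumors 1 and 3 and r = -0.83 with the mean of each tumor size removed.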
